A study of Homo sapiens with 10 samples.

Results

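The interferon response genes examined here were ISG15, MX1, RSAD2, BST2, IFIT1, IFIT2, IFIT3, OAS1 and STAT2, 9 of the 20033 protein-coding genes on chromosomes 1-22, X and Y. They were chosen by name, with earlier results of these data known. A gene was assigned every peak summit that lay in it or within 1 kb of its ends (build hg38). The summits came from chromatin immunoprecipitation with sequencing (ChIP-seq), which maps where a protein sits on DNA. The cells were 22RV1, an established human prostate cancer line. Each of the 6 immunoprecipitated libraries analysed was the sole library of its group. RB1 siRNA depletes the message of RB1, the retinoblastoma tumour suppressor, and was set against a control siRNA. HA-RB(245-255) is a plasmid for HA-tagged RB(245-255), read here as residues 245 to 255 of RB, and was set against EV(245-255), read as its empty vector. HA-RBN is a plasmid for a tagged insert named RBN, which is not spelled out, and was set against EV(RBN). All groups were transfected cells, and the labels give no time after transfection. One label field calls HA-RB(245-255) a control group, and its title was followed. No label names the antibody, while TRIM24, a chromatin reader, is the protein in the title of the series. A further 4 samples are IgG libraries of the siRNA and 245-255 pairs and were not analysed here.

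Type I interferons bind a receptor on the cell surface, and the kinases attached to it phosphorylate STAT proteins. STAT2 then enters the nucleus with its partners and binds the interferon-stimulated response element, a sequence in the promoters of antiviral genes. ISG15 is a ubiquitin-like protein that is conjugated to other proteins, and the products of MX1, OAS1, RSAD2, BST2 and the IFIT genes act against viruses. ChIP-seq peaks measure neither RNA nor protein. The lists therefore do not show whether the interferon response was on, nor how far RB1 was depleted.

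The measure of strength was the number of DNA fragments stacked at a summit, recovered from the authors' fold enrichment and p-value. Enrichment is that number over the library's own background. The background was 0.539 fragments per base with RB1 siRNA and 0.413 with the control siRNA, 0.25 for HA-RB(245-255) and 0.187 in EV(245-255), and 0.634 in HA-RBN and 0.367 in EV(RBN). With 1 library in each group no test between conditions was possible, and each 95% interval covers counting error only. In the siRNA and 245-255 lists the intervals were wide, with medians from 18225 to 83581 bp against 522 bp in HA-RBN and 450 bp in EV(RBN). Each interval lists 1 summit, so a gene can lie inside an interval and have no summit of its own. Of 7 prostate lineage genes, 5 had a summit with RB1 siRNA and 2 with the control siRNA. The counts were 5 for HA-RB(245-255) and 6 for EV(245-255), and 7 for HA-RBN and for EV(RBN). Among all protein-coding genes 51.2% had a summit with RB1 siRNA and 42.3% with the control siRNA. For HA-RB(245-255) it was 71.3% and for EV(245-255) 71%, and for HA-RBN 91.8% and for EV(RBN) 85.2%. The lineage counts were not tested against these shares. The enrichment used here sets a summit against the whole library and not against the surrounding or IgG background. On the authors' own scale the siRNA and 245-255 summits of the members had fold enrichments from 1.03 to 2.05. Their −log10 q was at most 0.0589. In these lists 1 fragment counted as 0.0166 to 0.0512, and 1 was then added to both stack and background. The ratio is thus held low even for tall stacks, as at OAS1 in HA-RB(245-255), with 21 fragments and a ratio of 2.05. In the RBN pair, which has no IgG partner in the labels, the authors' fold enrichments of member summits ran from 1.78 to 5.25. There 1 fragment counted as 1, so these ranges cannot be compared between the pairs.

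The promoters of ISG15 and STAT2 are shown because these were the members with a summit within 500 bp of the gene start in at least 3 libraries. Sequences are from RefSeq (GRCh38.p14), 5′ to 3′ on the strand of the gene, and cover the 250 bases before the start. Capitals mark matches to the core of the response element, GAAA, any 2 bases and GAAA, searched on both strands.
ISG15, chr1:1013247-1013496, plus strand: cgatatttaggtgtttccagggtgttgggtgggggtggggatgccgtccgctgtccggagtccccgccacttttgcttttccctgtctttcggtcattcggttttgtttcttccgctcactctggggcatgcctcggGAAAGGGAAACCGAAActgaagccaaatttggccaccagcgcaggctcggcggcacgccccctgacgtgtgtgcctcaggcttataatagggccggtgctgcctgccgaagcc
STAT2, chr12:56360108-56360357, minus strand: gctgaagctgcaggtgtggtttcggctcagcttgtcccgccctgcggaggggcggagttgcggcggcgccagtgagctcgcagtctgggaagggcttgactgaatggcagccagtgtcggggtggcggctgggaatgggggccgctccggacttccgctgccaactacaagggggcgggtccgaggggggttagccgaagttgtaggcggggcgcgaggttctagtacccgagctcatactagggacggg
The ISG15 window held 2 overlapping matches, and the STAT2 window held none.

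Matches in the other members are shown as 30 bases around the match, to compare their cores with that of ISG15. Not every match is printed, as IFIT1, IFIT3, BST2 and MX1 held further ones. A core that begins with TTTC is the same motif read on the other strand.
IFIT1, chr10:89392497-89392526, plus strand: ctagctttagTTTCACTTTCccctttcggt
IFIT3, chr10:89327865-89327894, plus strand: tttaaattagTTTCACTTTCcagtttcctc
BST2, chr19:17405741-17405770, minus strand: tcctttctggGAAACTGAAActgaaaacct
MX1, chr21:41420559-41420588, plus strand: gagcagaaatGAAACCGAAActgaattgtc
RSAD2, second annotated start, chr2:6877622-6877651, plus strand: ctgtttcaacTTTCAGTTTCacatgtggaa
Windows of 300 bases, from 250 before to 50 after a start, were searched for 8 members. The core was found in 6 of the 8, against 4.16% of the 15842 genes in the table. OAS1 and STAT2 had no match. A second motif, TTCNNNGAA, the core bound by STAT dimers, was found for OAS1, BST2 and MX1, against 8.98% of all genes. A match describes letters and not occupancy. IFIT2 was named only, with no promoter sequence.

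The number of members with a summit differed between the libraries, from 1 to 7 of 9. A summit was listed for 1 of 9 members with RB1 siRNA (95% exact binomial interval 0.281% to 48.2%) and 2 with the control siRNA (2.81% to 60.01%). The counts were 6 in HA-RB(245-255) (29.9% to 92.5%) and 4 in EV(245-255) (13.7% to 78.8%), and 6 in HA-RBN (29.9% to 92.5%) and 7 in EV(RBN) (39.99% to 97.2%). Of all protein-coding genes, 51.2% had a summit with RB1 siRNA and 42.3% with the control siRNA. The shares were 71.3% for HA-RB(245-255) and 71% for EV(245-255), and 91.8% in HA-RBN and 85.2% in EV(RBN). The members' share lay below that of all genes in each of the 6 libraries. These intervals take the 9 genes as independent, which they are not, since IFIT2 and IFIT3 lie in the same interval with RB1 siRNA, so no call is made from them. The members are also shorter, with a median span of 13865 bp against 24130 bp for all genes, and the part of length in these shares was not tested.

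**Figure D1:**
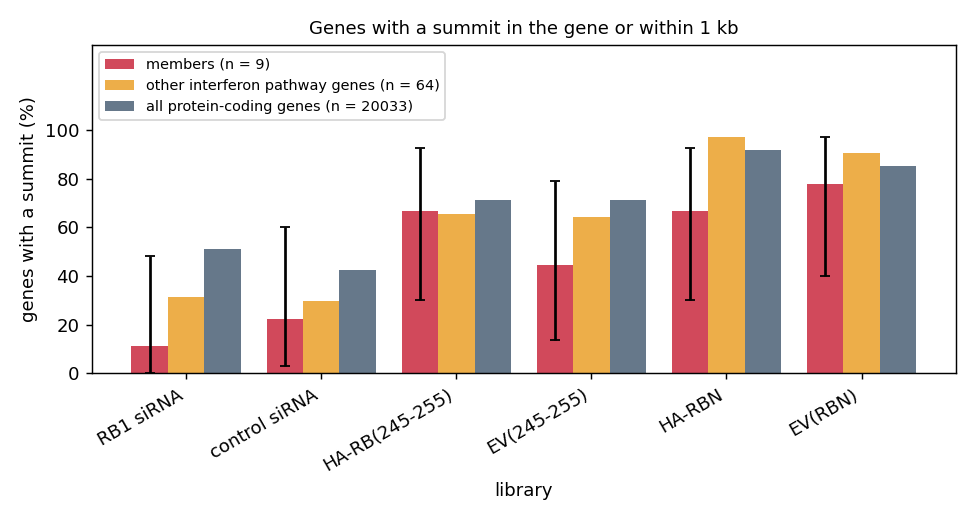
Share of genes (%, vertical axis) with a summit in the gene or within 1 kb, by library (horizontal axis, 1 library each). Red bars are the 9 members with exact 95% binomial intervals, yellow bars the 64 other interferon pathway genes, grey bars all 20033 protein-coding genes, and the red bar is lower than the grey one in all 6 libraries.

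The 9 members had 53 summits in all. Of these, 39 held at most 5 fragments, 8 held at least 10, and 2 reached a −log10 q of 5. The 8 stronger summits lay in ISG15, STAT2, OAS1 and RSAD2. Among members with a summit, the strongest summit had a median of 2 fragments with RB1 siRNA and 13.5 with the control siRNA, against 21 and 20 over all genes in those libraries. The medians were 5.5 in HA-RB(245-255) and 8 in EV(245-255), against 9 over all genes in each, and 8.5 in HA-RBN and 5 in EV(RBN), against 10 and 5. No median of the members lay above that of all genes.

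**Figure D2:**
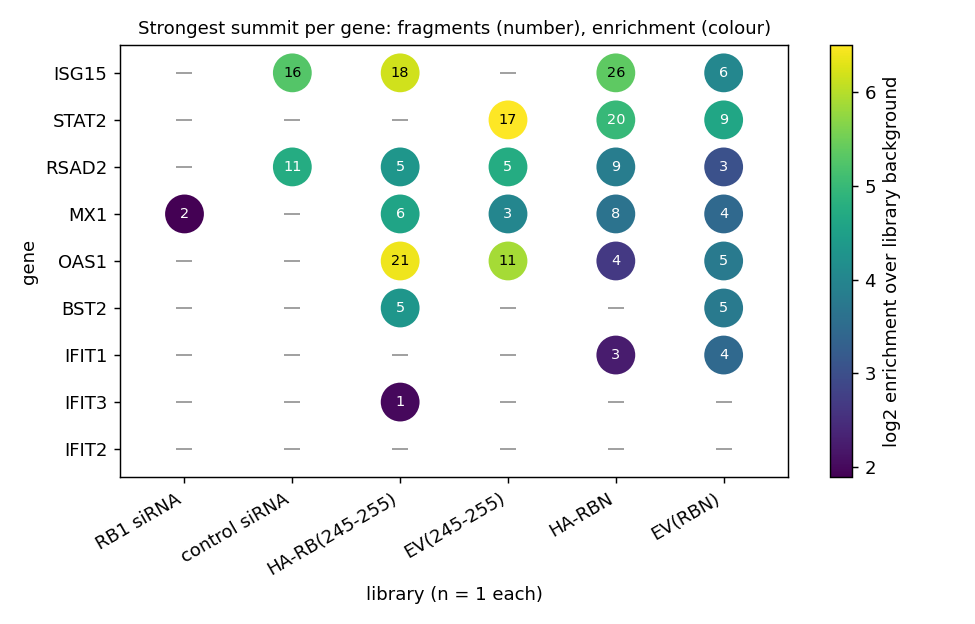
Strongest summit of each gene (vertical axis) in each library (horizontal axis). Numbers are fragments at the summit, colour is log2 enrichment over the library background, and a dash marks no summit, as for IFIT2 throughout. ISG15, STAT2 and OAS1 hold the highest numbers.

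STAT2, the transducer of the set, lies on chromosome 12 from 56341597 to 56360107. It had no summit with RB1 siRNA, with the control siRNA or in the HA-RB(245-255) library. In EV(245-255) a summit of 17 fragments (95% Poisson interval 9.90 to 27.2), an enrichment of 90.7, stood 264 bp before the start. In HA-RBN there were 20 fragments (12.2 to 30.9) 34 bp before it, and in EV(RBN) 9 fragments (4.12 to 17.1) 133 bp before it, at enrichments of 31.5 and 24.6. The authors' fold enrichments were 1.72 in EV(245-255), 5.25 in HA-RBN and 4.07 in EV(RBN), and the EV(245-255) value is not on the scale of the RBN pair. The 3 summits lay within 230 bp of each other, at or before the start, inside the sequence shown or close to its outer edge. They also fell within 1 kb of the annotated span of APOF. The HA-RBN summit had a −log10 q of 7.75. Among genes with a summit within 500 bp of a start, 70.6% had fewer fragments than STAT2 in HA-RBN, 69.8% in EV(RBN) and 61.2% in EV(245-255). Weaker summits of 2 to 6 fragments stood inside the gene in HA-RBN and in EV(RBN).

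In the siRNA libraries STAT2 lay inside intervals of 247041 bp with RB1 siRNA and 170135 bp with the control siRNA. Their single summits, of 146 and 130 fragments, were 128284 and 128283 bp beyond the gene. A lower stack at STAT2 would not be listed there. In HA-RB(245-255) the case was different, as the position of the EV(245-255) summit lay outside every listed interval, 461 bp from the nearest one. The interval that covers the rest of STAT2 held its summit of 42 fragments 25348 bp from the gene. A gap of this kind does not show that binding was missing.

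ISG15 lies on chromosome 1 from 1013497 to 1014540 and was listed in 4 libraries. The RB1 siRNA library had no summit, against 16 fragments (9.15 to 26.0) with the control siRNA. HA-RB(245-255) had 18 fragments (10.7 to 28.4) and EV(245-255) no summit. HA-RBN had 26 fragments (17.0 to 38.1) and EV(RBN) 6 (2.20 to 13.1). All 4 summits stood from 187 to 320 bp after the start, within 133 bp of each other, so they marked 1 site just inside the short gene and downstream of the response element shown above. Enrichments were 38.7 with the control siRNA, 72.0 for HA-RB(245-255), 41.0 for HA-RBN and 16.4 for EV(RBN), and the authors' fold enrichments were 1.21, 1.85, 4.60 and 2.71 in the same libraries. The HA-RBN summit was among the top 1.62% of all summits in that list by fragments and had a −log10 q of 8.30. When set against genes with a summit within 500 bp of a start, ISG15 ranked lower. Of these genes 80.2% had fewer fragments in HA-RBN and 64.6% in HA-RB(245-255). With the control siRNA 27.9% had fewer, and in EV(RBN) 46.8%. Where no summit was listed, the gene lay in an interval whose summit was elsewhere. With RB1 siRNA that summit held 62 fragments at 13188 bp from the gene, and in EV(245-255) 25 fragments at 6828 bp.

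RSAD2 encodes viperin, an enzyme that makes an antiviral nucleotide, and lies on chromosome 2 from 6865885 to 6898239. Near its first start no summit was listed with RB1 siRNA, against 11 fragments (5.49 to 19.7) with the control siRNA. HA-RB(245-255) had 5 (1.62 to 11.7) and EV(245-255) 5 (1.62 to 11.7). HA-RBN had 9 (4.12 to 17.1), while the strongest of 2 summits in EV(RBN), of 3 fragments (0.619 to 8.77), stood deep inside the gene. The 4 summits near the start were spread over 1114 bp, from 535 bp before to 579 bp after it. They also lay within 1 kb of CMPK2, a neighbouring interferon-induced gene, so they cannot be given to one of the genes. With RB1 siRNA the gene lay in an interval of 239597 bp whose summit of 15 fragments was 19260 bp away.

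MX1, a dynamin-like GTPase that blocks virus replication, is the longest member, on chromosome 21 from 41420558 to 41459214. It was listed in 5 libraries and never strongly. Its strongest summit held 2 fragments with RB1 siRNA, 4083 bp from the upper end of the gene, and the control siRNA library had no summit. It held 6 in HA-RB(245-255) and 3 in EV(245-255), and 8 in HA-RBN and 4 in EV(RBN). HA-RBN listed 9 summits along the gene and EV(RBN) 2. The HA-RBN summit of 8 fragments stood 210 bp after the first annotated start, close to the response element shown, which begins 11 bases after that start. At the second start HA-RBN had 5 fragments and EV(RBN) 3, 101 bp apart. No MX1 site recurred in more than 2 libraries.

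OAS1, a sensor of double-stranded RNA that makes oligoadenylates, had its site away from the start. The gene spans 112906962 to 112933219 on chromosome 12. At about 19.7 kb into the gene HA-RB(245-255) had 21 fragments (13.0 to 32.1) and EV(245-255) 11 (5.49 to 19.7), with summits 6 bp apart. HA-RBN had 4 (1.09 to 10.2) and EV(RBN) 5 (1.62 to 11.7) at the same site, with summits 15 bp apart. The 4 summits fell within 181 bp, and no siRNA library listed one there. In the siRNA lists this site lay inside intervals of 94860 bp with RB1 siRNA and 343539 bp with the control siRNA. Their summits stood beyond the upper end of OAS1, of 11 fragments at 5264 bp and 10 fragments at 5200 bp. A lower stack at the site would not be listed, so a missing summit there does not show missing binding. Exon and intron borders were not used here. At 84.0 in HA-RB(245-255) and 58.7 in EV(245-255) the enrichment over the library background was higher than the 6.31 in HA-RBN and 13.6 in EV(RBN). The medians over all genes with a summit differed in the same direction. They were 36.01 in HA-RB(245-255) and 48.02 in EV(245-255), against 15.77 in HA-RBN and 13.64 in EV(RBN). OAS1 thus stood above the median in both 245-255 libraries, below it in HA-RBN and at it in EV(RBN). How far the gap between the pairs is particular to OAS1 was not tested. The authors' fold enrichments were 2.05 in HA-RB(245-255) and 1.47 in EV(245-255), and 2.94 in HA-RBN and 3.83 in EV(RBN). These fold enrichments cannot be ordered across the pairs. Before 1 was added, 1 fragment counted as 0.0512 in HA-RB(245-255) and 0.0434 in EV(245-255), but as 1 in the RBN pair. HA-RBN listed 7 further summits in OAS1 and EV(RBN) 1, with 2 to 4 fragments each.

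BST2 encodes tetherin, which holds budding virus particles at the cell surface, and spans 17402939 to 17405630 on chromosome 19. HA-RB(245-255) had 5 fragments (1.62 to 11.7) and EV(245-255) no interval at the gene. HA-RBN had no interval either, and EV(RBN) had 5 fragments (1.62 to 11.7). These 2 summits lay 117 bp apart, more than 2 kb downstream of the start and 291 and 408 bp from the lower end. EV(RBN) also had 3 fragments 540 bp before the start, within 1 kb of MVB12A. In the siRNA libraries BST2 lay in intervals whose summits, of 179 fragments with RB1 siRNA and 182 with the control siRNA, were 64383 and 64457 bp away. A summit at BST2 was thus listed in 1 library of each plasmid pair, the construct in one and the empty vector in the other.

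The IFIT genes, whose proteins bind viral RNA, had few listed summits. They lie together on chromosome 10, IFIT2 from 89302046 to 89309271, IFIT3 from 89327997 to 89340968 and IFIT1 from 89392623 to 89406487. IFIT2 had no summit in any of the 6 libraries. IFIT3 had 1 summit of 1 fragment, in HA-RB(245-255), beyond its upper end. IFIT1 had a summit of 3 fragments in HA-RBN, 408 bp before its start, and 2 of 3 and 4 fragments in EV(RBN), inside the gene and beyond its upper end. The IFIT1 and IFIT3 summits fell within the annotated span of LIPA or 1 kb of it as well. In the RBN pair, where intervals are narrow, no interval came within 1 kb of IFIT2 or IFIT3. In the siRNA and 245-255 lists each of the 3 genes lay at least partly inside a wide interval, and at IFIT2 the strongest such interval had its summit elsewhere, of 10 fragments with RB1 siRNA and 17 with the control siRNA, and 3 for HA-RB(245-255) and 4 for EV(245-255). The summits listed at these genes held 1 to 4 fragments. In the wide intervals a stack lower than the summit would not be listed, so a missing summit there does not show missing binding.

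**Figure D3:**
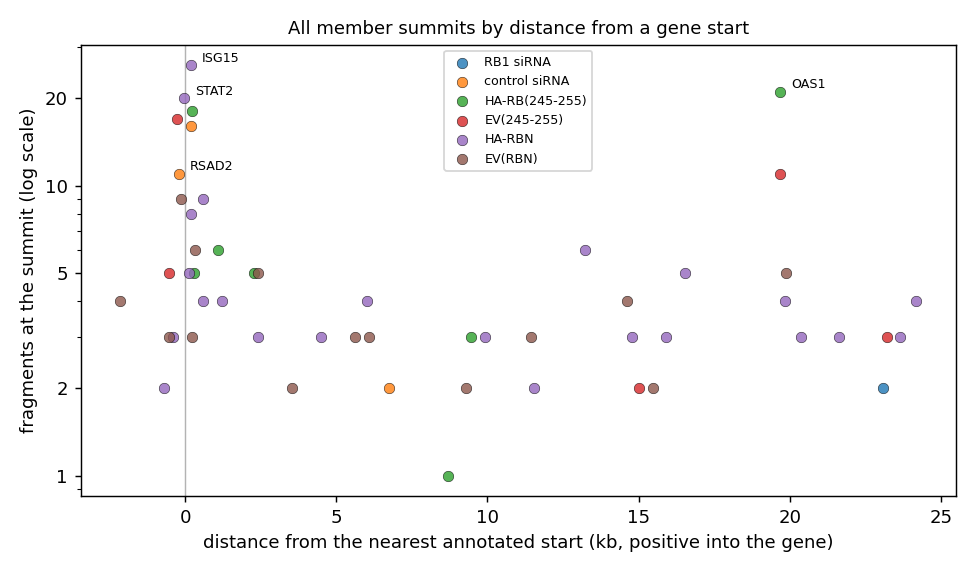
All 53 member summits by distance from the nearest annotated start (kb, horizontal axis, positive into the gene) and fragments at the summit (vertical axis, log scale), coloured by library. Summits of at least 10 fragments stand near a start in ISG15, STAT2 and RSAD2 and about 19.7 kb into OAS1, with the strongest of each gene labelled.

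Sites shared between libraries were counted by linking neighbouring summits at most 500 bp apart. Links can chain, so a site can be wider, as at RSAD2, where the site of 4 libraries spans 1114 bp. At least 3 libraries shared a site at 4 members, ISG15, RSAD2, OAS1 and STAT2, against 63.8% of all genes. At least 4 shared one at 3 members, ISG15, RSAD2 and OAS1, against 47.5%, and none was shared by all 6, against 15.1%. With 4 of 9 members the share did not stand above that of all genes.

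The siRNA pair asks what loss of RB does to binding of the immunoprecipitated protein. MX1 had a summit with RB1 siRNA only (18.2% of all genes), and ISG15 and RSAD2 had one with the control siRNA only (9.32%). For ISG15 that is no summit with RB1 siRNA against 16 fragments with the control siRNA, and for RSAD2 none against 11. No member had a summit in both lists, so no ratio could be formed and 0 members were higher or lower, where 5.45% of the 6609 genes with both were higher by at least 1 log2 unit and 6.45% lower. All 4 member summits of this pair lay inside an interval of the other list, and none counted as exclusive when absence was judged by intervals. These lists do not show whether a member gained or lost binding.

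The 245-255 pair asks what a short RB fragment does to that binding. ISG15, BST2 and IFIT3 had a summit in HA-RB(245-255) only (11.3% of all genes), and STAT2 in EV(245-255) only (11.1%). OAS1, MX1 and RSAD2 were listed in both. Their log2 ratios of enrichment were 0.52 (95% interval −0.60 to 1.72) for OAS1, 0.58 (−1.64 to 3.21) for MX1 and −0.42 (−2.53 to 1.70) for RSAD2. Over all 12009 genes with a summit in both lists the median was −0.42, and 5.23% were higher and 18.5% lower by at least 1 log2 unit. No member passed that size in either direction. Relative to the median of all genes OAS1 stood at 0.93 (−0.18 to 2.13), MX1 at 1.00 (−1.23 to 3.63) and RSAD2 at 0.00, so MX1 reached the size on that scale, and also with no scaling for background. Each interval spans 0. The MX1 summits compared were 33619 bp apart and those of RSAD2 843 bp apart, so OAS1 alone compares the same position.

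The RBN pair asks what the RBN insert does to that binding, and 6 members were listed in both libraries. ISG15 had 26 fragments in HA-RBN against 6 in EV(RBN), a log2 ratio of 1.32 (0.01 to 2.90), and was the sole member higher by at least 1 log2 unit (15% of 16610 genes). IFIT1, with 3 fragments in HA-RBN and 4 in EV(RBN), stood at −1.21 (−3.98 to 1.36), and OAS1, with 4 and 5, at −1.11 (−3.45 to 1.104). These 2 were lower by at least 1 log2 unit (2.89%). The IFIT1 summits compared were 15031 bp apart, and 1 member, OAS1, was lower when summits had to lie within 500 bp of each other. With no scaling for background 4 members were higher and 0 lower. The median of all genes in this pair was 0.32. Relative to it ISG15 stood at 1.00 (−0.31 to 2.57), IFIT1 at −1.53 (−4.30 to 1.03) and OAS1 at −1.44 (−3.77 to 0.78). On that scale no member's interval excluded 0. The others were STAT2 at 0.36 (−0.84 to 1.68), MX1 at 0.21 (−1.69 to 2.39) and RSAD2 at 0.79 (−1.21 to 3.32). The summits compared were 99 bp apart for STAT2, but 3334 bp for MX1 and 17412 bp for RSAD2. The latter ratios therefore do not compare the same position. With summits within 500 bp of each other MX1 stood at −0.05. BST2 had a summit in EV(RBN) only (2.28%), no member had one in HA-RBN only (8.85%), and IFIT2 and IFIT3 had none in either.

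**Figure D4:**
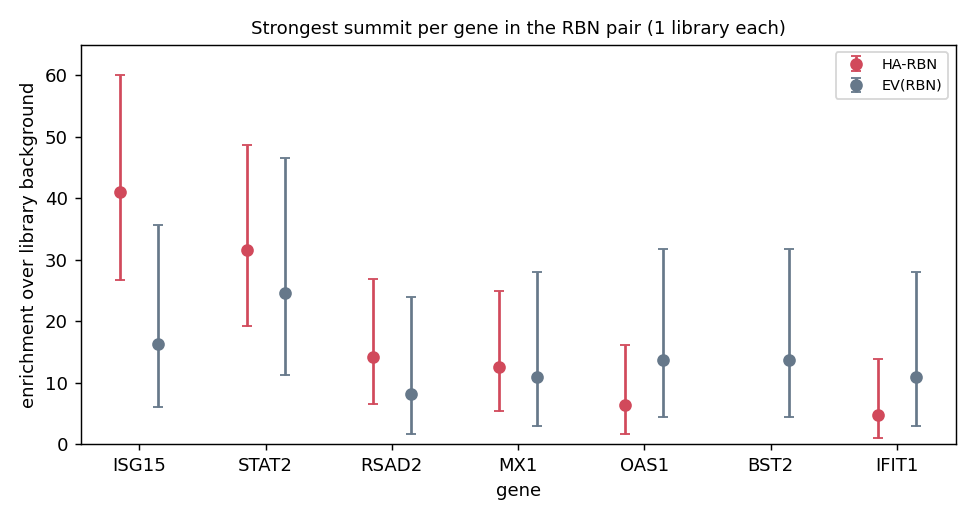
Enrichment of the strongest summit over the library background (vertical axis) for the members with a summit in HA-RBN (red) or EV(RBN) (grey), 1 library each. Bars are exact 95% Poisson intervals of the fragment number, and those of HA-RBN and EV(RBN) overlap for all 6 genes that have both. Such overlap is not a test of a difference. The interval of the ISG15 log2 ratio was 0.01 to 2.90, and −0.31 to 2.57 relative to the median of all genes.

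Summits within 500 bp of an annotated start were listed for 0 of 8 members with RB1 siRNA and 2 with the control siRNA, against 33.5% and 28.2% of all genes. They were listed for 2 in HA-RB(245-255) and 1 in EV(245-255), against 41.7% and 41.8%, and for 4 in HA-RBN and 3 in EV(RBN), against 60.8% and 46.3%.

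CpG content differed among the members' starts. The 12 start windows of 8 members held a median of 5.5 CpG dinucleotides, against 21 over the 22198 windows of all genes, with a GC content of 50.7% against 62.3%. The windows of ISG15 and STAT2, with a summit within 500 bp in 4 and 3 libraries, held 20 and 25. The first starts of RSAD2 and MX1, with summits in 2 libraries and 1, held 45 and 20, and the second start of MX1, with summits in 2, held 30. IFIT1, with 1 library, held 4. The 6 windows without a summit within 500 bp, at OAS1, BST2, IFIT3 (both starts), the second start of RSAD2 and the third of MX1, held between 1 and 6. Some of these had a weak summit just beyond that cut. It stood 598 bp from the start of OAS1 in HA-RBN and 540 bp from that of BST2 in EV(RBN). At the third start of MX1 it stood 703 bp away in HA-RBN. The split by CpG content therefore depends on the cut. Over all genes the median was 6 in windows with no summit, 19 with 1 or 2 libraries and 27 with 3 to 6. Of windows with no summit 4.41% held the response element core, against 3.22% with 1 or 2 libraries and 2.09% with 3 to 6. Among the members, 5 of the 6 windows without a summit held the core and 3 of the 6 with one did. This describes 12 windows, some of them of the same gene, and was not tested.

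**Figure D5:**
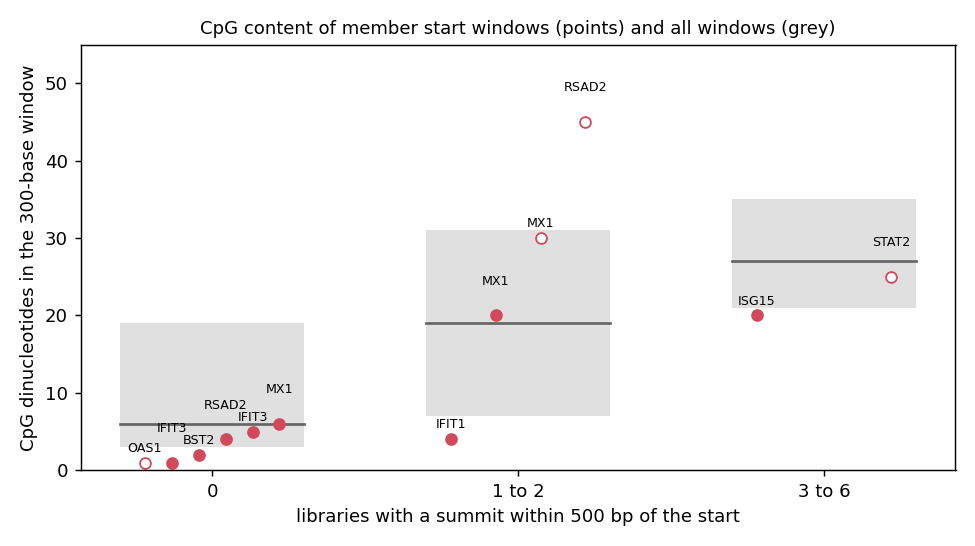
CpG dinucleotides in the window around each member start (vertical axis) by the number of libraries with a summit within 500 bp (horizontal axis). Filled points hold the response element core, open points do not, and grey boxes and lines are the quartiles and medians of all 22198 windows. The 6 member windows without a summit within 500 bp all hold 6 or fewer CpG. Of these, OAS1, BST2 and the third start of MX1 had a weak summit within 1 kb.

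Another 64 genes of the interferon pathway, from receptors to antigen presentation, were counted in the same way. A summit was listed for 20 with RB1 siRNA and 19 with the control siRNA, for 42 of them in HA-RB(245-255) and 41 in EV(245-255), and for 62 in HA-RBN and 58 in EV(RBN). As shares these were 31.2% and 29.7%, 65.6% and 64.1%, and 96.9% and 90.6%, below the share of all genes in the siRNA and 245-255 pairs and above it in the RBN pair. Of the receptors and their kinases 5 of 8 had a summit in each siRNA library, 7 in HA-RB(245-255) and 8 in EV(245-255). Other interferon-stimulated effectors had 7 of 31 with RB1 siRNA and 6 with the control siRNA, and 24 in HA-RB(245-255) and 20 in EV(245-255). Of 5 transcription factors of the pathway none had a summit in HA-RB(245-255) and 4 had one in EV(245-255), where 11.1% of all genes had a summit in EV(245-255) only. One of the 4, IRF7, rests on a summit of 1 fragment. Sensors of viral nucleic acid had 3 of 8 in each library of that pair, and negative regulators 3 of 3. Antigen presentation genes had 5 of 9 in HA-RB(245-255) and 3 in EV(245-255), and 8 in HA-RBN and 5 in EV(RBN).

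Among pathway genes with a summit in both RBN libraries, 2 were higher, 1 lower and 54 neither. Over all genes with both, 15% were higher and 2.89% lower. In the 245-255 pair 0 were higher, 8 lower and 25 neither, against 5.23% and 18.5% of all genes. In the siRNA pair 2 were higher, 0 lower and 11 neither, against 5.45% and 6.45%. By the rule for naming them, the strongest called genes were the following. IRF1 and IRF3, transcription factors of the interferon system, had no summit in HA-RB(245-255) against 28 and 19 fragments in EV(245-255). HERC5, the ligase that attaches ISG15, had 10 fragments in HA-RB(245-255) against 19 in EV(245-255), and 14 in HA-RBN against 3 in EV(RBN). The RNA editing enzyme ADAR had 20 in HA-RBN against 5 in EV(RBN). B2M, the light chain of class I molecules, had 9 in HA-RBN and no summit in EV(RBN). TBK1, a kinase that activates interferon induction, had 55 with RB1 siRNA against 4 with the control siRNA. IRF7 had no summit with RB1 siRNA and 43 fragments with the control siRNA, and the receptor gene IFNGR1 had 31 with RB1 siRNA and no summit with the control siRNA. These compare the strongest summit of each gene wherever it lies, and in the wide intervals a missing summit does not show missing binding. Over the 6 libraries the patterns nearest to the members' median were those of HLA-B, at a Euclidean distance of 0.518 in log2 units, and UBE2L6, at 0.976. Neither had a summit in the siRNA pair or in EV(245-255).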

How the data were processed

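The 6 peak lists were deposited by the authors, with 1 list for each library and no pooling. The tools named, per the submitters' processing notes, are MACS2 2.1.0, Bowtie 1.1.2, Trimmomatic 0.33 and bcl2fastq 2.17, and the build is hg38. Their roles, settings, control libraries and the read depth are not stated. The authors' columns are a fold enrichment (a ratio), −log10 p-value, −log10 q-value, a peak score and the summit offset. MACS2 forms the fold enrichment by adding 1 to pileup and to local background, and takes its p-value from a Poisson distribution. Both were solved together for a whole number of fragments, within 0.05 fragments in the scaled siRNA and 245-255 lists and 0.001 in the RBN pair. The lowest solution was taken, and at least 99.98% of summits gave one. More than 1 solution existed for 0.109% of summits in HA-RBN and up to 4.35% with the control siRNA. The solution was tried on simulated data. There the scaled list was given its true scale and background, so the estimation of these in the siRNA and 245-255 lists was not tested. Genes and promoters came from RefSeq tables (GRCh38.p14), with 64 of 64 pathway symbols matched. Python 3.11.15, numpy 2.4.6, pandas 2.3.3, scipy 1.17.1 and matplotlib 3.10.9 were used.

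Intervals are exact Poisson or Clopper-Pearson at 95%, and those of ratios come from the binomial share of fragments. PCR copies are not independent molecules, so intervals cover counting error only. Higher or lower means at least 1 log2 unit. All members are named. Of the pathway list, the rule names up to 3 called genes per pair by fragments and the 2 nearest patterns. The members and lists were chosen with earlier results of these data known. Alternatives covered window, peak filters, list length, scaling and matching of summits.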

Additional observations from a re-analysis of the deposited data

How the results depend on the processing

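No paired analysis was possible because each group has 1 library and no test was run. The counts of members depended on how weak a peak was admitted. At −log10 q of at least 5 they were 0 in both siRNA libraries, 0 for HA-RB(245-255) and 0 for EV(245-255), and 2 in HA-RBN and 0 in EV(RBN). Members in 1 library only then numbered 2 in HA-RBN, and 0 in each other library, and 0 were higher or lower in the RBN pair. Over the whole lists 78 peaks passed that filter with RB1 siRNA, 128 with the control siRNA, 214 for HA-RB(245-255) and 165 for EV(245-255). In HA-RBN 10161 passed and in EV(RBN) 2950. So few passed in the siRNA and 245-255 lists that a count of 0 there says little about the members. With at least 10 fragments the counts were 0 with RB1 siRNA, 2 in HA-RB(245-255), 2 in EV(245-255), 2 in HA-RBN and 0 in EV(RBN). Members in 1 library only were then 0 with RB1 siRNA, 1 in HA-RB(245-255), 2 in HA-RBN and 0 in EV(RBN), and 0 were higher or lower in the RBN pair. Within 1 kb of a start the counts were 0 with RB1 siRNA, 2 in HA-RB(245-255), 2 in EV(245-255) and 4 in EV(RBN). With lists of the same length RB1 siRNA had 0 members and 0 in that library only. Judged by intervals, members in 1 library only were 0 in both siRNA libraries, 1 for HA-RB(245-255) and 0 in EV(245-255). Without the 1 kb window 0 were in EV(245-255) only, 2 in EV(RBN) only, and 1 was lower in HA-RBN. Scaled to the median of all genes, 1 was higher in HA-RB(245-255). Without scaling, 1 was higher in HA-RB(245-255), 4 were higher in HA-RBN and 0 lower. With summits within 500 bp of each other 1 was lower in HA-RBN. The 2 kb window left each count within 1.5 times, and no ratio past 1 log2 unit changed sign under any alternative that gave one. Of 26 member enrichments, 19 left their interval when replaced by the authors' fold enrichment, which is another scale, and 3 when summits were summed. Why these values moved was not tested. Few fragments limit the precision, as 39 of 53 member summits held at most 5.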
